A study of Homo sapiens with 12 samples.

Results

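Small nucleolar RNAs (snoRNAs) and small Cajal body RNAs (scaRNAs) were examined in NCI-H1975 cells exposed to erlotinib, quinacrine or both. Members were the genes whose symbol starts with SNORA, SNORD or SCARNA, that had an array row naming no other gene, and whose mean log2 level over all 12 arrays was at least 5. Of 238 such genes with a row of their own, 48 reached this level: 26 of 157 SNORD genes, 18 of 61 SNORA genes and 4 of 20 SCARNA genes. The 5820 genes of any kind that reached the same level are called tested genes. The members were thus chosen by their mean level over treated and untreated arrays alike, and a gene high in 1 treatment could reach the limit for that reason. Just inside the limit were SCARNA10 at 5.04, SNORA5C at 5.10 and SNORD59A at 5.12. Just outside were SNORD116-20 at 4.98, SNORD58C at 4.93 and SNORD116-23 at 4.90.

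SnoRNAs are short noncoding RNAs that direct enzymes to chosen bases of ribosomal RNA. Box C/D snoRNAs (SNORD) guide 2′-O-methylation through fibrillarin, and box H/ACA snoRNAs (SNORA) guide pseudouridylation through dyskerin; a few instead take part in cleaving the ribosomal RNA precursor. ScaRNAs act in the same way on the spliceosomal small nuclear RNAs, within Cajal bodies. Most are cut out of the introns of a host gene, so that a snoRNA and its host mRNA come from 1 transcript but are kept or degraded separately.

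NCI-H1975 is a lung adenocarcinoma line that carries the EGFR changes L858R and T790M. T790M is known to give resistance to erlotinib, an inhibitor of the EGFR kinase. Quinacrine is an acridine antimalarial that binds DNA. Total RNA was read on Affymetrix Human Gene 2.1 ST arrays. There were 4 arrays of cells in 1 µM erlotinib plus 3 µM quinacrine (6, 12, 24 and 48 h, called the combination), 3 arrays in 3 µM quinacrine (6, 12 and 24 h), 4 arrays in 1 µM erlotinib (6, 12, 24 and 48 h) and 1 untreated array with no time. All arrays shared the line and its EGFR changes. Each treatment and time had 1 array, so no condition had a replicate, and separate cultures are not stated. P-values therefore measure the spread between these arrays, which may be technical. Between treatments it is the spread around an additive effect of treatment and time. Against untreated it is the spread around group means, which holds any effect of time. For slopes it is the spread around a straight line over doublings of time.

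Each array was centred on its median over the tested genes, and levels below are centred log2 values. A level is relative to the other RNAs on the same array, so a change in the amount of 1 RNA and a change in the total RNA of a cell cannot be told apart. The combination 6 h array stood apart: its values had an interquartile range of 2.04, against 2.26 to 2.88 on the other arrays, and its median over the tested genes was 6.18, against 6.38 to 6.56. Values without it are given beside some of the differences that it moved. Of 11 epithelial markers 7 were tested genes, among them CDH1 at a mean level of 10.31 and EPCAM at 8.54, as was the lung lineage marker NKX2-1 at 6.12, while KRT8 (2.81), KRT18 (4.71), NAPSA (2.87) and SFTPB (1.65) were not. Of the leukocyte markers with a row, PTPRC (0.89), CD3E (1.31) and CD14 (1.83) were low, and CD68 (8.57) and HLA-DRA (5.89) were tested genes, HLA-DRA with a slope of 0.32 per doubling of time (limma adjusted p = 0.0308). No endothelial or fibroblast marker was a tested gene.

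RNA was isolated with a silica column kit of a kind that retains short RNAs poorly, and the probes of a snoRNA row read the snoRNA and the intron that holds it alike. The effect of either on the values was not tested. By RefSeq, the SNORD members spanned 60 to 237 bases (median 89), the SNORA members 131 to 189 (median 136.5) and the SCARNA members 125 to 421 (median 330). SNORD13P3 is listed there as a pseudogene. Copies of the SNORD116, SNORA71, SNORD105 and SNORD3 families are so alike that probes of one copy may read others, and their rows are uncertain for that reason.

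By RefSeq bounds, which were compared without strand, 45 of the 48 members lay inside another gene, and 41 genes held them. SNORD13, SNORD3C and SNORA50C lay in none. SnoRNA host genes often start their transcripts with a terminal oligopyrimidine (TOP) tract, a C followed by an unbroken run of C or T that links translation to nutrient signalling. Of the 28 host genes with a promoter window in RefSeq (GRCh38.p14), 9 (32.1%) had a start base C within an unbroken run of at least 5 bases C or T, counted from the start base on the gene's own strand, against 5.14% of 27305 genes. ZFAS1, RPS3, RPL12, EEF1B2, EP400, IPO7, NCAPD2, SNX5 and CSKMT were the host genes with the tract. The starts of 5 host genes whose snoRNAs are described in detail follow, picked after their values were seen, with ZFAS1 for comparison. Each line runs from 20 bases before the RefSeq start to 25 bases from it, 5′ to 3′ on the gene's strand, and the capitals mark the start base and, in ZFAS1, the pyrimidine run.
SNHG14 (chr15:24823588-24823632, plus strand; holds the SNORD116 copies): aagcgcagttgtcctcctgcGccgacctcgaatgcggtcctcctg
NOL11 (chr17:67717916-67717960, plus strand; holds SNORA38B): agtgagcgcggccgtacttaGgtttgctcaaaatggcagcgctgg
TNPO2 (chr19:12723908-12723952, minus strand; holds SNORD41): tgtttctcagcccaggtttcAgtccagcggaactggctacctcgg
SNHG8 (chr4:118278742-118278786, plus strand; holds SNORA24): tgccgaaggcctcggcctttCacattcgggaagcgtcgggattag
GAS5 (chr1:173869021-173869065, minus strand; holds SNORD75 and SNORD78): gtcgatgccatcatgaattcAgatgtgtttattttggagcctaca
ZFAS1 (chr20:49278622-49278666, plus strand; holds SNORD12C): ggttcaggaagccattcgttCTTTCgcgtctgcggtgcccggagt
Of these 6 starts only that of ZFAS1 held the tract at the annotated base; the others say no more than that these letters are not at that base.

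The 8 members with the highest mean levels were SNORD13, SNORA71D, SNORD41, SNORD116-15, SNORA71C, SNORD105B, SNORA68 and SNORA22. Signals of different rows depend on their probes, so this order is not one of abundance. SNORD13, the U13 RNA, directs acetylation of 18S ribosomal RNA and has a promoter of its own. Its levels were 11.11, 10.97, 11.21 and 11.24 in the combination at 6, 12, 24 and 48 h, 11.09, 11.16 and 10.70 in quinacrine at 6, 12 and 24 h, 10.88, 11.09, 11.45 and 10.87 in erlotinib at 6, 12, 24 and 48 h, and 11.04 without treatment. The groups overlapped, with the highest value at erlotinib 24 h and the lowest at quinacrine 24 h. SNORD3C, a copy of the U3 RNA that is needed for precursor cleavage, was at 6.27, 6.21, 5.68 and 5.57 in the combination, 5.78, 6.00 and 6.22 in quinacrine, 5.43, 5.58, 5.83 and 5.31 in erlotinib and 5.56 without treatment. The combination was above erlotinib at 6, 12 and 48 h and below it at 24 h.

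As a group the members stayed near the level of the untreated array. The median difference from untreated over the 48 members was 0.02, 0.02, 0.12 and 0.13 in the combination at 6, 12, 24 and 48 h, -0.16, 0.02 and -0.06 in quinacrine at 6, 12 and 24 h, and -0.02, -0.15, 0.24 and -0.08 in erlotinib at 6, 12, 24 and 48 h. Over all tested genes these medians lay between -0.04 and 0.08. The erlotinib 24 h array carried the highest median, 0.24, against 0.00 over the tested genes, and the median was 0.30 for SNORD, 0.25 for SNORA and -0.19 for SCARNA members. Of the 4 erlotinib arrays, the 24 h array had the highest level for 24 of 48 members, against 22.1% of tested genes, and the lowest for 3. Its median was 0.24 to 0.27 under the 3 other scalings of the arrays. The 22 other small RNA genes that were tested (such as microRNA, 7SK and SNAR genes) had a median of 0.15 on the same array, and the tested host genes had -0.04.

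**Figure D1:**
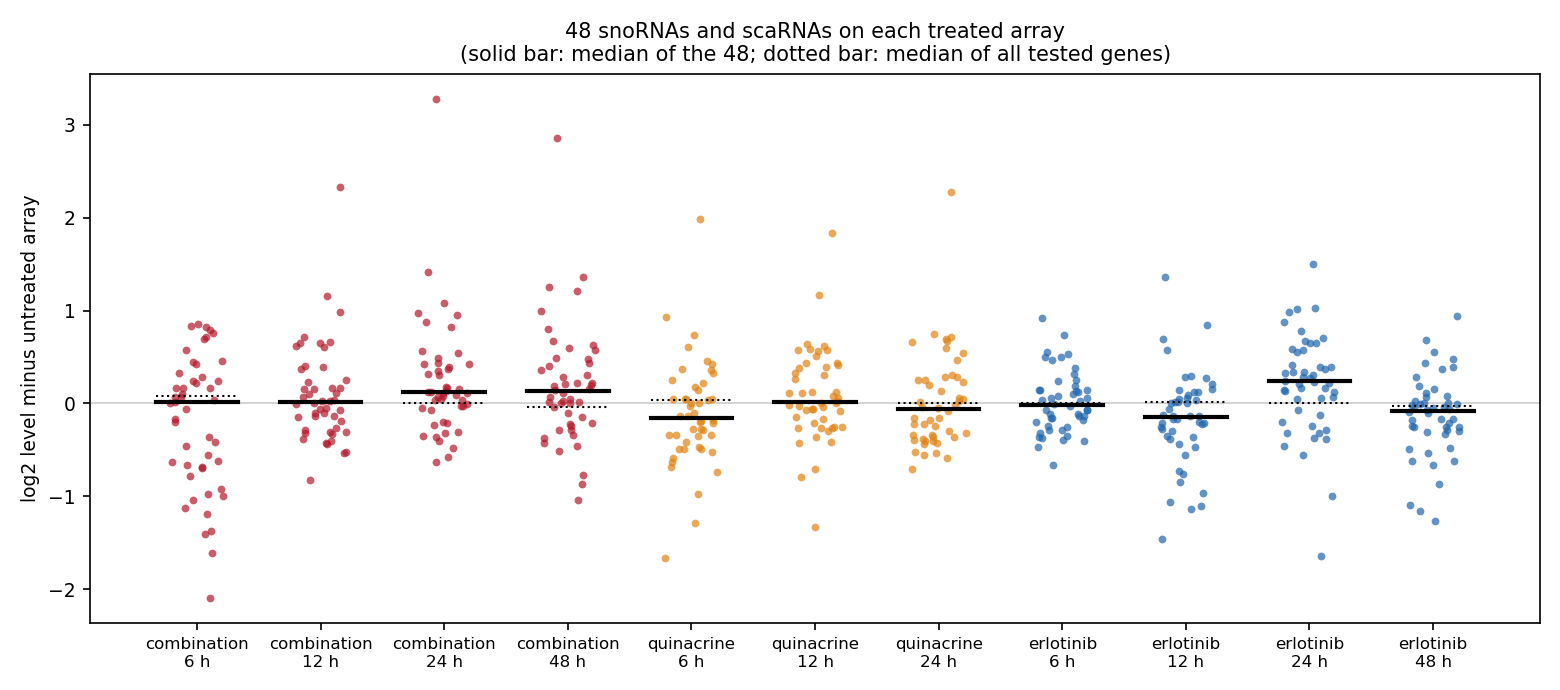
Difference of each of the 48 members from the untreated array (vertical axis, centred log2) on the 11 treated arrays (horizontal axis). Points are members, solid bars their median and dotted bars the median of all tested genes. The medians lie between -0.16 and 0.24, and the points of combination 6 h reach lowest.

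On the combination 6 h array the median hid a wide spread. The differences of the members from untreated had an interquartile range of 0.98 there, against 0.53 for the tested genes. On erlotinib 24 h these were 0.63 and 0.35, and on erlotinib 48 h 0.38 and 0.41. On combination 6 h, 8 of 48 members were at least 1 log2 unit below the untreated array (3.73% of tested genes). These 8 were SNORD12C, SNORD4B, SNORA24, SNORD78, SNORA50C, SNORA5A, SNORD14E and SNORD59A, and none was that far above it (0.928%). On combination 12 h and 24 h none of the 48 was that low (0.842% and 0.962% of tested genes), and at 48 h SNORD59A alone was (0.962%), at 4.76 against 5.80 without treatment. In the other direction, 2, 3 and 4 members were at least 1 unit above untreated at 12, 24 and 48 h, against 0.653%, 1.32% and 1.89% of tested genes. SNORA38B and SNORD116-24 were among them at all 3 times, SNORD41 at 24 and 48 h and SNORD116-1 at 48 h. Such shifts were not confined to the combination. In erlotinib at 6, 12, 24 and 48 h, 0, 4, 2 and 3 members were that low (0.0344%, 0.636%, 0.412% and 0.876% of tested genes). There 0, 1, 3 and 0 were that high (0.0344%, 0.155%, 0.309% and 1.01%). In quinacrine at 6, 12 and 24 h, 2, 1 and 0 were that low (1.56%, 1.1% and 0.979%). There 1, 2 and 1 were that high (0.825%, 1.03% and 1.37%). SNORD78, a GAS5 snoRNA that guides methylation of 28S ribosomal RNA, was at 4.45 on combination 6 h and at 6.22, 6.03 and 6.28 at the later times. SNORD78 was at 6.11, 6.44 and 6.60 in quinacrine, 6.56, 6.90, 6.20 and 6.06 in erlotinib and 6.06 without treatment, so that the 1 array lay below all 11 others. The direction of the members' median on combination 6 h depended on the scaling: it was -0.27 without centring, -0.43 when arrays were centred on all rows and -0.11 after cyclic loess.

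Combination and erlotinib arrays, which differ by quinacrine, were matched at 4 times. Of the 48 members 1 was called at a limma adjusted p under 0.05, where 7.54% of tested genes were called: SNORD116-14, which was higher with the combination (3.83% of tested genes were called higher and 3.71% lower). SNORD116 RNAs have no known ribosomal RNA target, are best known from brain, and lie in an imprinted cluster whose loss is tied to Prader-Willi syndrome. SNORD116-14 was at 8.76, 8.58, 8.94 and 8.77 in the combination at 6, 12, 24 and 48 h, 8.43, 8.61 and 8.64 in quinacrine at 6, 12 and 24 h, 7.60, 8.03, 8.62 and 7.76 in erlotinib at 6, 12, 24 and 48 h and 7.97 without treatment. The combination was above erlotinib at every matched time, but the erlotinib 24 h value exceeded that of combination 12 h. The difference was 0.76 (SE 0.15, adjusted p = 0.0172), a 1.69-fold rise, with 4 time points a group.

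That call was not stable. The size stayed between 0.64 and 0.92 when single arrays were left out, but leaving out erlotinib 48 h, or combination 48 h, gave a limma adjusted p of 0.0652, and it was 0.0607 when arrays were centred on all rows. Without the combination 6 h array the difference was 0.68 (adjusted p = 0.0396). Over the 48 members the median difference was 0.08 (0.04 to 0.16 with single arrays left out), against 0.01 over the tested genes, and 30 were above 0. At an unadjusted p under 0.05 there were 10 members (20.8%), against 25.3% of tested genes. The half-width of the 95% interval of a member's difference was 0.40 at the median.

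**Figure D2:**
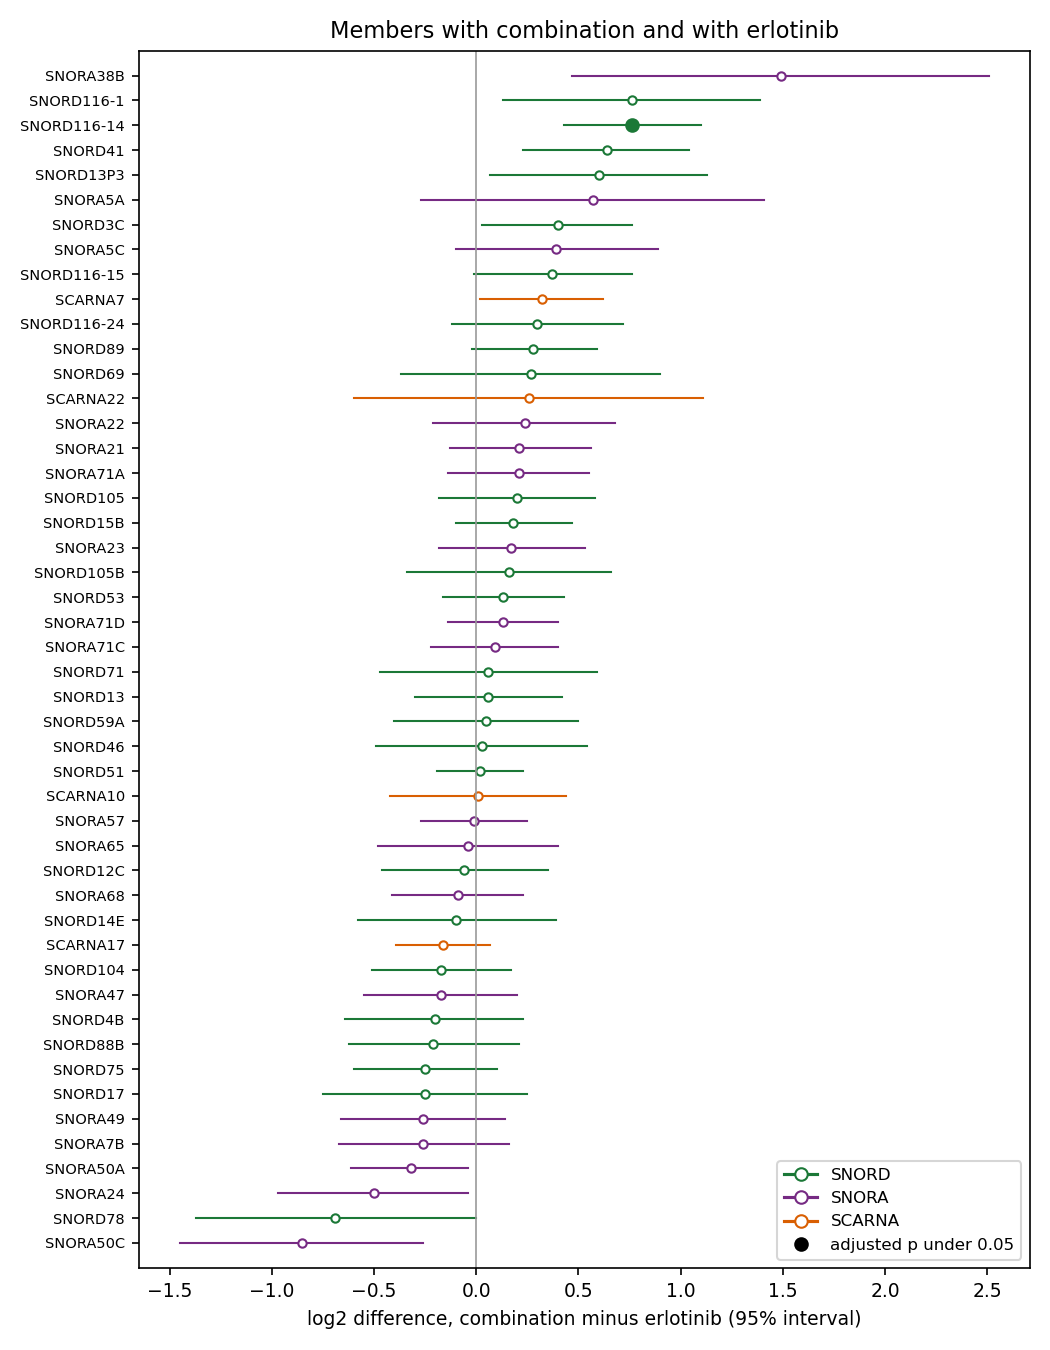
Log2 difference of combination minus erlotinib (horizontal axis) for each of the 48 members (rows), with 95% intervals from the fit of 11 treated arrays and colours for the 3 classes. The filled point is SNORD116-14 at 0.76, the member with an adjusted p under 0.05; SNORA38B, at 1.49, has the widest interval.

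The member with the largest difference was SNORA38B, a box H/ACA snoRNA inside NOL11, a gene for a protein of early ribosome assembly. SNORA38B was at 4.44, 6.75, 7.70 and 7.27 in the combination at 6, 12, 24 and 48 h, 6.40, 6.25 and 6.69 in quinacrine at 6, 12 and 24 h, 5.16, 4.28, 5.40 and 5.36 in erlotinib at 6, 12, 24 and 48 h and 4.42 without treatment. Of the 7 arrays with quinacrine, 6 were above all 5 arrays without it, and combination 6 h was level with the untreated array. The share of tested genes with such a pattern was not counted. The difference of combination minus erlotinib was 1.49 (SE 0.46, limma adjusted p = 0.0772). Without the combination 6 h array it was 2.19 (adjusted p = 0.000314). Against untreated the combination differed by 2.12 with all arrays and by 2.82 (adjusted p = 0.0241) without that array. That array is the 1 with quinacrine that was not higher, so the p-values without it are no test of the rise. Over all fits that left out 1 array the difference of combination minus erlotinib ran from 1.17 to 2.19, with adjusted p from 0.000314 to 0.229. Its mean of 5.84 reached the limit of 5 because of those 6 arrays, while the untreated, erlotinib 12 h and combination 6 h arrays were under it.

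SNORD41, a box C/D guide for 28S ribosomal RNA inside the importin gene TNPO2, was at 9.88, 9.77, 10.20 and 10.37 in the combination, 9.86, 9.71 and 9.59 in quinacrine, 9.31, 9.39, 9.90 and 9.07 in erlotinib and 9.12 without treatment. The combination was above erlotinib at all 4 times, and the erlotinib 24 h array overlapped with it. The difference was 0.64 (SE 0.18, limma adjusted p = 0.0617). Members above erlotinib at all 4 times were SNORD41, SNORD116-14, SNORD89 and SNORA5C, 4 of 48, against 14% of tested genes. No member had all its combination arrays above all its erlotinib arrays (6.72% of tested genes). Likewise none had all 7 arrays with quinacrine above the 5 without it, or below them (3.95% and 4.05% of tested genes).

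SNORA50C was the member lowest with the combination relative to erlotinib, and the only one below it at all 4 times (13.2% of tested genes) and with no overlap (6.67% of tested genes). It was at 3.75, 5.51, 5.49 and 5.86 in the combination, 4.55, 5.13 and 5.86 in quinacrine, 5.88, 5.96, 5.90 and 6.28 in erlotinib and 5.84 without treatment. Both arms with quinacrine were lowest at 6 h and close to the untreated array by their last time. The difference of combination minus erlotinib was -0.85 (SE 0.27, limma adjusted p = 0.0814), and -0.53 without the combination 6 h array (adjusted p = 0.145). SNORA50A, a guide for 18S ribosomal RNA inside CNOT1, differed by -0.32 (SE 0.13, adjusted p = 0.152), or -0.21 without that array.

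**Figure D3:**
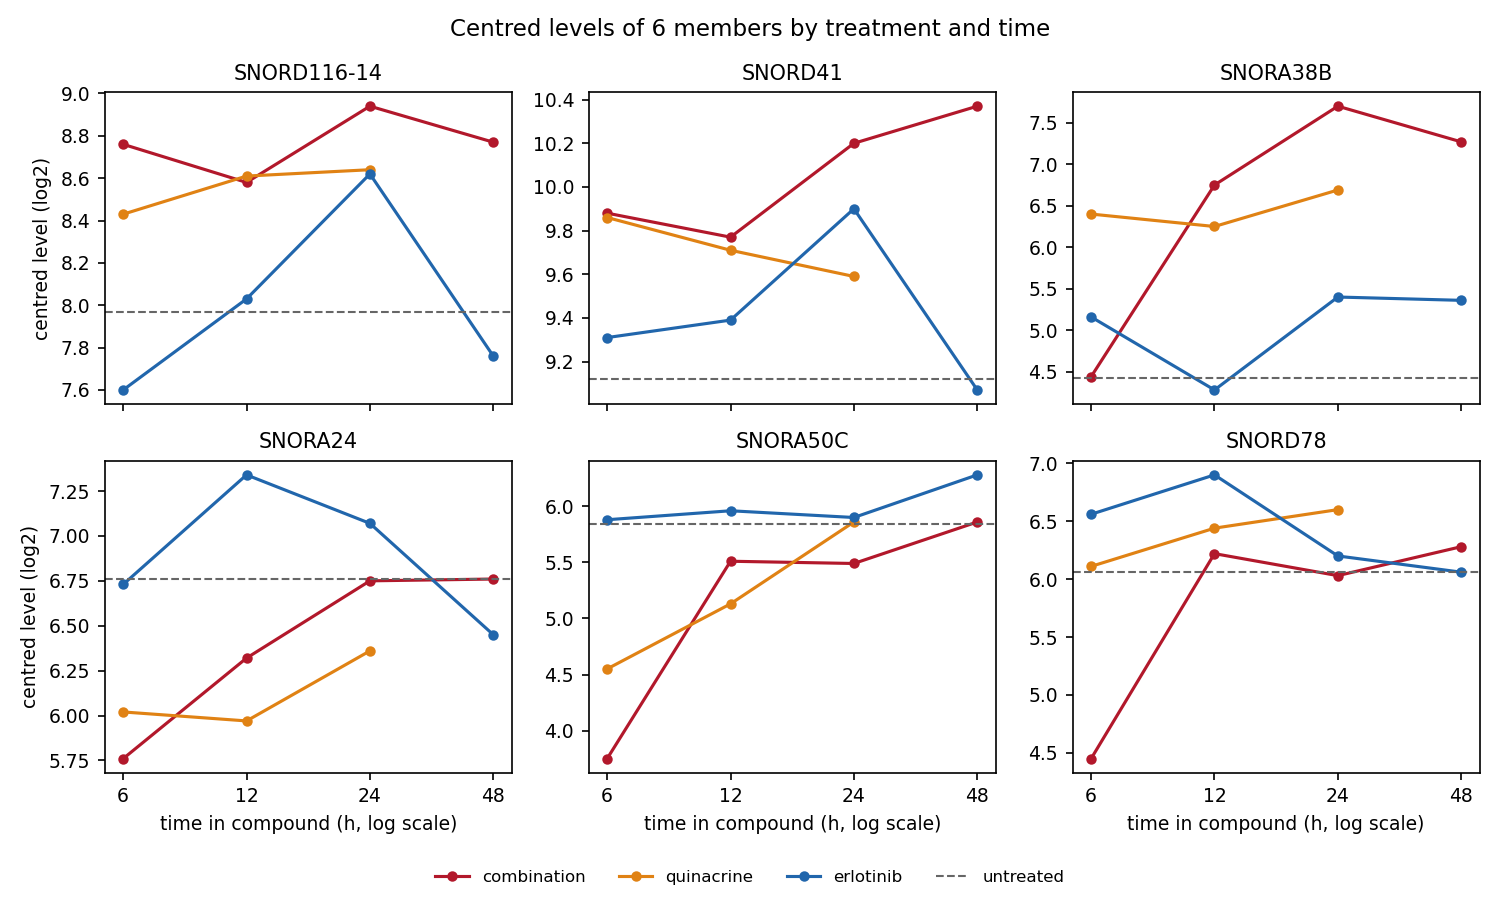
Centred log2 levels (vertical axes) of 6 members against time (horizontal axes, log scale) in the combination, quinacrine and erlotinib, with the untreated array as a dashed line. SNORA38B is at 6.25 or more on 6 of 7 arrays with quinacrine, and SNORA50C and SNORD78 are lowest on combination 6 h, at 3.75 and 4.45.

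Quinacrine alone was compared with erlotinib alone at 3 matched times. None of the 48 members was called by limma, where 5.03% of tested genes were (2.56% higher and 2.47% lower). At an unadjusted p under 0.05 there were 7 members (14.6%), against 21.9% of tested genes, and the members' median difference was -0.03, against 0.01. That median ran from -0.12 to 0.09 when single arrays were left out, so its sign was not stable. The smallest adjusted p, 0.0743, was that of SNORD88B, at 4.62, 5.34 and 5.00 in quinacrine, 5.64, 6.08, 5.74 and 4.88 in erlotinib and 4.72 without treatment. It differed by -0.72 (SE 0.21), but the untreated array was as low as quinacrine. SNORA24, an 18S guide inside SNHG8, was at 6.02, 5.97 and 6.36 in quinacrine, 6.73, 7.34, 7.07 and 6.45 in erlotinib and 6.76 without treatment. Its quinacrine arrays lay below all erlotinib arrays and below the untreated one.

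The SNORA24 difference was -0.80 (SE 0.23, limma adjusted p = 0.0774), and -0.93 (adjusted p = 0.0251) when the erlotinib or the combination 48 h array was left out; over single arrays it ran from -0.96 to -0.58, with adjusted p from 0.0251 to 0.329 (0.0437 without combination 6 h). With the combination, SNORA24 was at 5.76, 6.32, 6.75 and 6.76 at 6, 12, 24 and 48 h, and its difference from erlotinib was -0.50 (SE 0.21, adjusted p = 0.169), with -0.77 (adjusted p = 0.0482) without a 48 h array, -0.33 (0.363) without combination 6 h, -0.31 (0.41) without erlotinib 12 h and -0.08 (0.804) without both of these. SNORA38B was 1.57 higher with quinacrine than with erlotinib (SE 0.51, adjusted p = 0.108), and its difference was 1.45 (adjusted p = 0.00248) without the combination 6 h array, which feeds the shared spread. Without other single arrays it ran from 1.18 (adjusted p = 0.37, without quinacrine 6 h) to 2.08 (0.0462, without erlotinib 6 h). SNORA38B reached the limit on the mean because of arrays with quinacrine, so these p-values are no test of its rise. SCARNA7, which guides methylation of the U1 small nuclear RNA, differed by 0.40 (SE 0.15, adjusted p = 0.153). Quinacrine arrays lay above all erlotinib arrays for SNORA38B alone (11.1% of tested genes) and below them for SNORA50A, SNORA24 and SNORA50C (9.35% of tested genes). At all 3 times 5 members were above erlotinib and 8 below it (24.1% and 20% of tested genes). Of the 18 SNORA members 4 had a positive difference from erlotinib, against 15 of 26 SNORD members, with medians of -0.14 and 0.07. The comparisons with erlotinib share its arrays and are not independent of each other.

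Erlotinib added to quinacrine gave no call among the members or among all tested genes (0 of 5820 by limma). At an unadjusted p under 0.05 there were 3 members (6.25%) and 108 tested genes (1.86%). The 3 were SNORA23, inside IPO7, with a difference of 0.51 (SE 0.18), SNORD88B with 0.51 (SE 0.21) and SNORA21, inside the ribosomal protein gene RPL23, with 0.40 (SE 0.17), each with an adjusted p of 0.999. Without quinacrine 6 h these were 0.28, 0.34 and 0.17, and without combination 6 h 0.33, 0.41 and 0.27. SNORA23 was at 8.27, 8.13, 8.37 and 7.86 in the combination and 7.15, 7.81 and 8.13 in quinacrine, with most of the gap at 6 h. At 24 h the combination was above quinacrine in 39 of 48 members, against 46% of tested genes, with a median of 0.25. At 6 and 12 h it was so in 23 and 19 members, against 56.3% and 44.5% of tested genes. The 24 h pair of arrays thus stood apart from the other pairs of this comparison. The lowest by p were SCARNA17 (-0.25, SE 0.12), SNORD78 (-0.67, SE 0.34) and SNORD4B (-0.37, SE 0.22), all with an adjusted p of 0.999, and without combination 6 h these were -0.20, -0.18 and -0.05. Combination arrays lay above all quinacrine arrays for SNORD116-1 (0.893% of tested genes) and below them for SNORD4B (1.63%).

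Against the single untreated array no member was called in any arm. Of the tested genes 0.103% were called for the combination (0.0515% higher, 0.0515% lower), 0.103% for quinacrine (0.0344% higher, 0.0687% lower) and 0% for erlotinib. At an unadjusted p under 0.05 there were 7, 3 and 5 members for the 3 arms in that order, against 12.6%, 12.3% and 2.99% of tested genes. SNORD116-24 had the smallest p of the members with the combination. It was at 8.07, 8.40, 8.65 and 8.45 in the combination, 8.17, 8.41 and 7.93 in quinacrine, 7.77, 7.93, 8.74 and 7.92 in erlotinib and 7.24 without treatment. All 11 treated arrays were above the untreated one, the only member for which this held (9.05% of tested genes). The differences were 1.16 (SE 0.32, limma adjusted p = 0.175) with the combination, 0.94 (SE 0.33, adjusted p = 0.267) with quinacrine and 0.86 (SE 0.32, adjusted p = 0.998) with erlotinib. The next by p with the combination were SNORD41 (0.93, SE 0.28, adjusted p = 0.21) and SNORD116-14 (0.79, SE 0.29, adjusted p = 0.277). With quinacrine the next was SNORD69, which was lower and is described below, and then SNORA38B (2.03, SE 0.88, adjusted p = 0.373).

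Below the untreated array on all 11 treated arrays were SNORD12C, SNORD4B, SNORA57, SNORD69 and SNORD59A, 5 of 48 members, against 7.92% of tested genes. SNORD69, inside the nucleolar GTPase gene GNL3, was at 5.70, 5.80, 6.04 and 5.75 in the combination, 4.96, 5.29 and 6.09 in quinacrine, 6.23, 5.48, 4.98 and 5.53 in erlotinib and 6.62 without treatment. It differed by -0.79 (SE 0.41) with the combination, -1.17 (SE 0.42) with quinacrine and -1.06 (SE 0.41) with erlotinib, with limma adjusted p of 0.463, 0.278 and 0.998. SNORD59A, inside the ATP synthase gene ATP5F1B, was at 4.43, 5.49, 5.32 and 4.76 in the combination, 5.28, 5.39 and 5.21 in quinacrine and 5.33, 5.04, 4.80 and 4.64 in erlotinib, against 5.80 without treatment, and differed by -0.85 with erlotinib (SE 0.34, adjusted p = 0.998). A direction shared by all treated arrays rests on the 1 untreated array.

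With time, the slope shared by the 3 arms was called for 1 of 48 members, where 3.97% of tested genes were called. SNORA47, inside the zinc finger gene ZBED3, was higher with time (2.16% of tested genes were called higher and 1.8% lower). SNORA47 was at 5.23, 6.36, 6.13 and 6.35 in the combination, 5.61, 6.14 and 6.43 in quinacrine, 5.95, 5.85, 6.57 and 6.39 in erlotinib and 6.20 without treatment. In each arm a 6 or 12 h array was lowest, and the later arrays were near or just above the untreated one. The slope was 0.28 per doubling of time (SE 0.07, limma adjusted p = 0.0479), and the call was lost in 9 of the 11 fits that left out 1 treated array, among them the one without combination 6 h (0.20, adjusted p = 0.192). SNORA50C had 0.42 (SE 0.11, adjusted p = 0.0539), or 0.25 without that array, and the members' median was 0.05, against -0.02 over the tested genes. The lowest by p were SNORD51 (-0.07), SNORD105 (-0.10, or -0.06 without combination 6 h) and SCARNA17 (-0.10), whose sign turned when arrays were centred on all rows.

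No member had a slope that differed between combination and erlotinib by limma, and neither had any tested gene (0%). At an unadjusted p under 0.05 there were 9 members and 929 tested genes (18.8% and 16%). The 3 with the smallest p were SNORD75 with 0.34 (SE 0.10), SNORD78 with 0.75 (SE 0.23) and SNORD104 with 0.32 (SE 0.10) per doubling, with adjusted p of 0.163, 0.188 and 0.192. Without combination 6 h they were 0.22, 0.25 and 0.28, with adjusted p of 0.537, 0.656 and 0.493. SNORD75 and SNORD78 share GAS5, a host gene whose mRNA is broken down as cells translate it. SNORD75 was at 6.06, 6.41, 6.41 and 6.35 in the combination and 6.86, 6.84, 6.34 and 6.19 in erlotinib, low early in the combination and low late in erlotinib. GAS5 itself was at 6.68, 6.98, 7.02 and 7.19 in the combination and 7.28, 7.20, 6.80 and 6.95 in erlotinib, also lowest at 6 h in the combination and highest at 6 h in erlotinib.

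SNORD116 had 18 copies with a row: 4 members, which lie inside SNHG14 on chromosome 15, 5 with a mean between 3 and 5, and 9 with a mean under 3. The 4 members differed by 0.30 to 0.76 with the combination relative to erlotinib (median 0.57) and by 0.06 to 0.52 with quinacrine (median 0.42). SNORD116-15 was at 9.58, 9.66, 9.71 and 9.78 in the combination, 9.47, 9.87 and 9.60 in quinacrine, 8.94, 9.07, 9.96 and 9.28 in erlotinib and 9.29 without treatment. The erlotinib 24 h array was the highest of the 12. SNORD116-1 was at 5.75, 6.04, 5.88 and 6.42 in the combination, 5.67, 5.62 and 5.66 in quinacrine, 5.56, 4.10, 5.94 and 5.45 in erlotinib and 5.06 without treatment, and its difference of combination minus erlotinib was 0.76 (SE 0.28, limma adjusted p = 0.129). Each of the 4 members was above the untreated array on 7 of 7 arrays with quinacrine. The share of tested genes for which this held was not counted. Some erlotinib arrays were above it too: all 4 for SNORD116-24, 6, 24 and 48 h for SNORD116-1, 12 and 24 h for SNORD116-14 and 24 h for SNORD116-15. These directions rest on the 1 untreated array. The 4 members share a host, near-identical sequence and possibly probe signal, and do not count as 4 findings.

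SNORD116-21, with a mean of 4.73, was no member and was chosen after its values were seen. It was at 5.31, 5.36, 5.96 and 6.72 in the combination, 5.19, 5.84 and 6.24 in quinacrine, 3.73, 2.83, 3.63 and 3.34 in erlotinib and 2.65 without treatment. All 7 arrays with quinacrine were above all 5 without it, among them combination 6 h, and in both arms the level was higher at each later time. Of the tested genes 3.95% had all 7 arrays above the other 5, and shares over all 22395 genes are not given here. SNORD116-21 was picked for this pattern, so the values below describe it and are no test of it. In a fit of all 22395 genes with no limit on the mean, it was 2.46 higher with the combination than with erlotinib (SE 0.28, limma adjusted p = 0.00998) and 2.52 higher with quinacrine (SE 0.31, adjusted p = 0.0183). In that fit SNORD116-30 (mean 4.06) differed by 1.27 with the combination (SE 0.18, adjusted p = 0.0223), and SNORD116-14 was no longer called (adjusted p = 0.0977). Of the other copies with a mean of at least 3, SNORD116-27 differed by 1.34 (SE 0.25, adjusted p = 0.0538), SNORD116-20 by 0.31 and SNORD116-23 by -0.04. Whether probes of one copy read RNA of another was not tested.

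**Figure D4:**
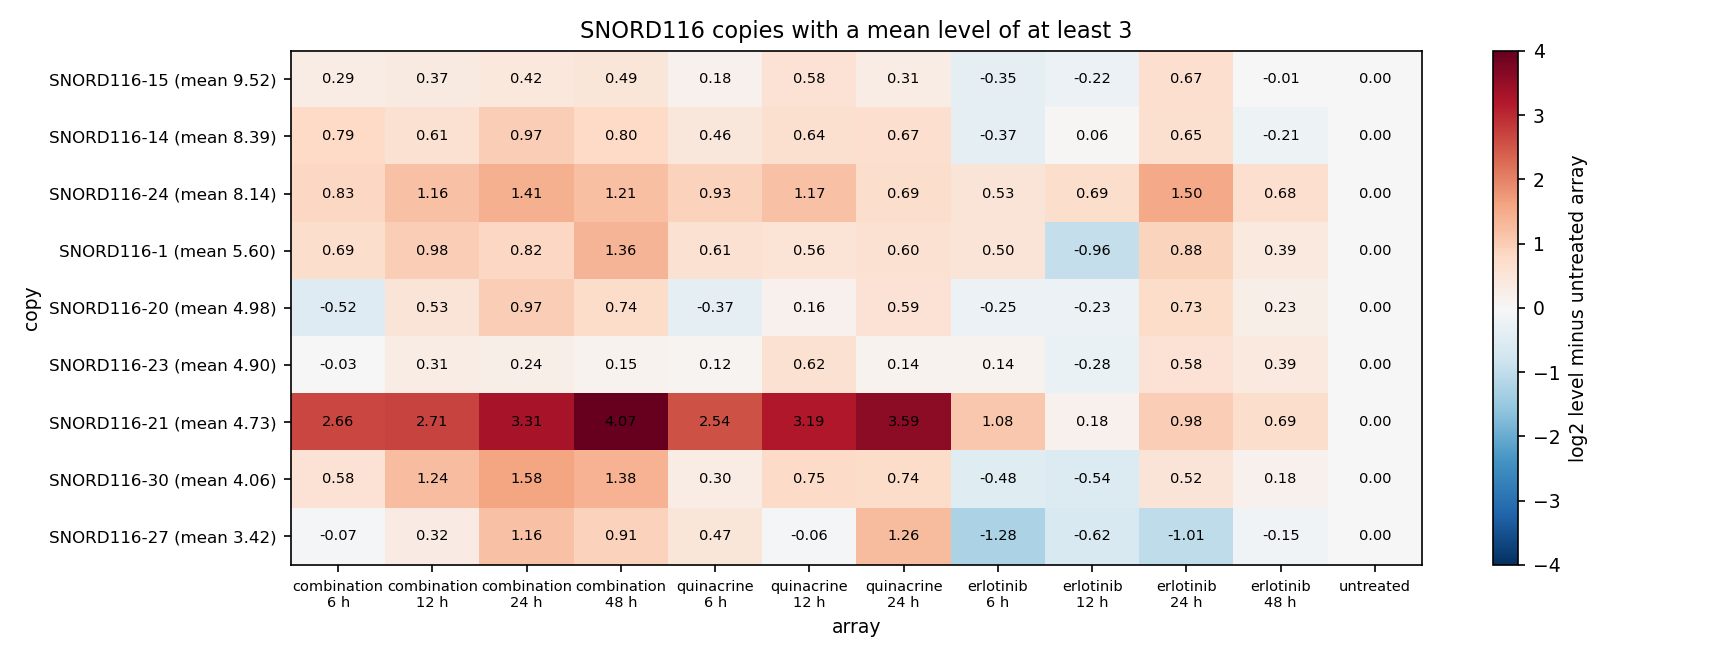
Difference from the untreated array (colour and printed value, centred log2) of the 9 SNORD116 copies with a mean level of at least 3 (rows) on the 12 arrays (columns, with the combination at the left and untreated at the right). SNORD116-21 is higher than untreated on all arrays with quinacrine, where the other copies differ less, and also on every erlotinib array. SNORD116-15, SNORD116-14, SNORD116-24, SNORD116-1 and SNORD116-30 are likewise higher than untreated on all arrays with quinacrine. These directions rest on the single untreated array.

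The 3 SNORA71 members, guides for 18S ribosomal RNA inside SNHG17, differed less. With the combination relative to erlotinib they differed by 0.09 to 0.21 (median 0.13), and with quinacrine by -0.12 to -0.02. Without combination 6 h SNORA71D differed from erlotinib by 0.03 in place of 0.13. Its levels were 10.87, 10.60, 10.82 and 10.66 in the combination, 10.43, 10.67 and 10.54 in quinacrine, 10.42, 10.64, 10.92 and 10.46 in erlotinib and 10.70 without treatment, with all groups overlapping. SNHG17 itself was at 6.38, 6.45, 6.38 and 6.41 in the combination, 6.23, 6.27 and 6.31 in quinacrine, 6.60, 6.86, 6.53 and 6.45 in erlotinib and 6.84 without treatment. It was -0.21 with the combination (SE 0.10, limma adjusted p = 0.238), against a positive difference for each of the 3 snoRNAs it holds.

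Of the 41 genes that held a member, 20 were tested genes, and they held 23 members. With the combination relative to erlotinib none of the 20 was called higher and 1 was called lower (3.83% and 3.71% of tested genes). The 1 was EP400, which holds SNORA49 and encodes a chromatin remodeller (difference -0.65, SE 0.11, limma adjusted p = 0.00922). SNORA49 itself differed by -0.26, or -0.13 without combination 6 h. Member and host had the same sign in 14 of 23 pairs. NOL11 differed by 0.13 (SE 0.10, adjusted p = 0.459) where SNORA38B differed by 1.49, TNPO2 by 0.21 (SE 0.09, adjusted p = 0.197) where SNORD41 differed by 0.64, and SNHG8 by 0.10 (SE 0.22, adjusted p = 0.837) where SNORA24 differed by -0.50. NOL11 was at 9.0, 8.77, 8.74 and 8.65 in the combination, 8.95, 8.80 and 8.78 in quinacrine, 8.83, 8.89, 8.53 and 8.39 in erlotinib and 8.84 without treatment, a range far narrower than that of the snoRNA it holds. SNHG8 was lowest on combination 6 h, at 5.32, against 6.26 without treatment. With quinacrine relative to erlotinib, EP400 was likewise the only 1 of the 20 called, against 5.03% of tested genes. Its difference there was -0.71 (SE 0.12, limma adjusted p = 0.0144).

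**Figure D5:**
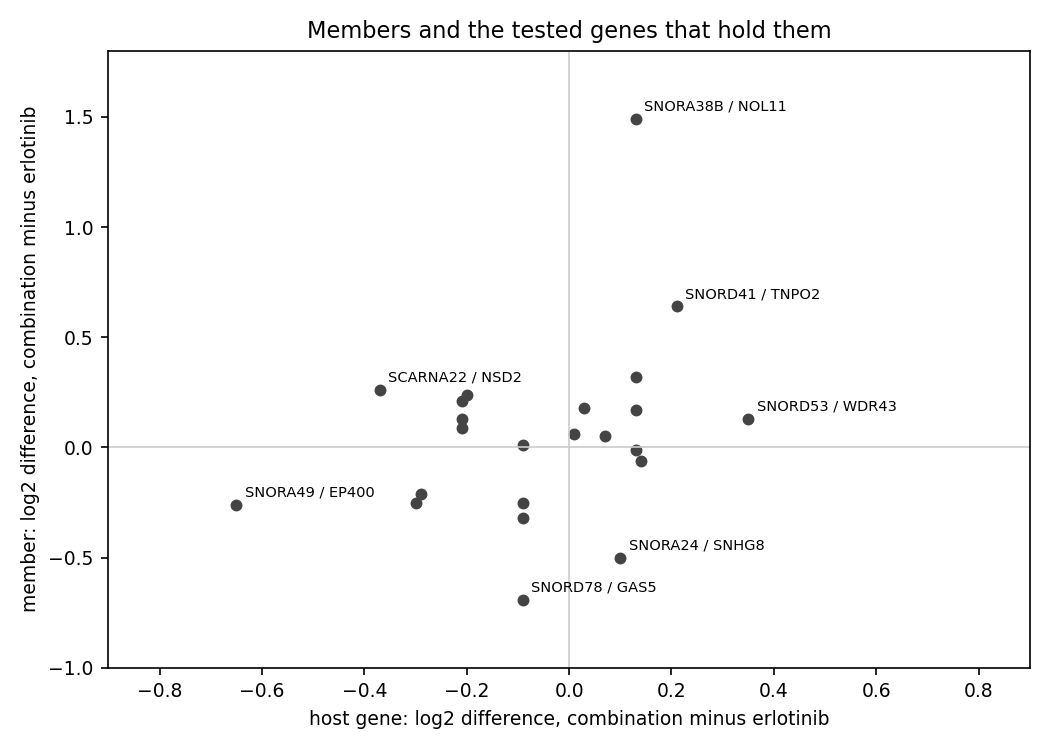
Log2 difference of combination minus erlotinib for the host gene (horizontal axis) and for the member inside it (vertical axis), for the 23 pairs with a tested host. SNORA38B lies at 1.49 while NOL11 is at 0.13, and EP400 is the host with the lowest value, -0.65.

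At the median, the RNA levels of tested genes for the proteins that build and hold these RNAs differed little. Protein was not measured. Of 8 genes for core proteins 5 were tested genes, with a median of -0.03 for combination minus erlotinib. Of these 1 was called lower (3.71% of tested genes): NOP10, for a small box H/ACA protein, by -0.39 (SE 0.10, limma adjusted p = 0.0452). With quinacrine NOP10 differed by -0.35 (SE 0.11, adjusted p = 0.109). None of the 6 tested assembly factors (such as RUVBL1, RUVBL2 and SHQ1), 2 Cajal body and nucleolar chaperone genes (NOLC1 and TCOF1), 4 genes of 3′ end processing (PARN, TOE1, TENT4B and EXOSC10) or 3 partners in ribosomal RNA cleavage (NCL, RRP9 and RMRP) was called in either comparison. Their medians with the combination relative to erlotinib were 0.04, 0.02, -0.05 and 0.02, against 0.01 over all tested genes. Of the 22 other small RNA genes, 2 were called lower with the combination than with erlotinib, against 3.71% of tested genes. They were SNAR-E (-1.24, SE 0.21, limma adjusted p = 0.00879) and SNAR-D (-0.75, SE 0.16, adjusted p = 0.0216), near-identical copies of an RNA that binds a double-stranded RNA protein. With single arrays left out the adjusted p ran from 0.044 to 0.156 for NOP10 and from 0.00884 to 0.0762 for SNAR-D. The NOP10 call was lost without any 1 of the treated arrays other than erlotinib 6 h, and that of SNAR-D without any 1 of erlotinib 6, 24 and 48 h and combination 12, 24 and 48 h. SNAR-E and SNAR-D were also called lower with quinacrine than with erlotinib, against 2.47% of tested genes. Those differences were -1.81 (SE 0.23, limma adjusted p = 0.00433) and -1.10 (SE 0.18, adjusted p = 0.0122).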

How the data were processed

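Total RNA of 12 samples was hybridised to 1 array each. The deposited values are log2 levels, made by the authors with RMA in Affymetrix Expression Console 1.30, per the submitters' processing notes; per the design text this held a background correction and a quantile step, with hg19 probe annotation. Of 53617 rows, 23871 named 1 gene, 1842 several and 27904 none; symbols were updated through RefSeq, and the row with the highest mean stood for a gene (22395 genes). A further 174 rows named a snoRNA or scaRNA together with another gene, 88 of them with a mean of at least 5, and were not used.

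Arrays were centred on the median of the 5820 tested genes (26% of genes, mean of at least 5). Linear models were fitted with limma 3.58.1 (lmFit, eBayes) under R 4.3.3; p-values were adjusted by the Benjamini-Hochberg method across the 5820 tested genes, and 0.05 was the limit for a call. The 3 treatments were compared in a model of 11 arrays that held treatment and time (5 residual degrees of freedom). The untreated array was compared in a fit of group means (8), which took its spread from the treated arrays. Slopes were per doubling of time (7, and 4 for their difference). The code was tested on simulated data.

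The text names the 8 members of highest mean, those called in each comparison or the 3 of each direction with the smallest p, the 3 with the smallest p against untreated and in the slope difference, host groups of 3 or more, SNORD13 and the fixed protein lists. Members, lists and rules were chosen with earlier results of these data known. SNORD3C, SNORD89, SNORA5A, SNORA5C, SNORD17, SNORD116-1 and the copies below the limit were named after their values were seen. The number of arrays limits the precision. Alternatives covered the centring, the limit on the mean, the row used for a gene, the prior variance, array weights, the time term and the arrays included.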

Additional observations from a re-analysis of the deposited data

Results flagged for a closer look

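In groups of 4 arrays, 62 combinations of group and named gene were examined for 1 array whose gap to its nearest neighbour took more of the whole range than Dixon's 95% critical value allows, and 4 were found; chance gives about 1 in 20. Of these, 3 were on the combination 6 h array, which stood apart as a whole: SNORD4B at 5.87 (others 6.91 to 6.95, share of the range 0.96), SNORD78 at 4.45 (others 6.03 to 6.28, 0.86) and SNORA50A at 6.23 (others 6.85 to 6.95, 0.86). The last was SNORD116-24 on erlotinib 24 h, at 8.74 (others 7.77 to 7.93, 0.83), the array on which the members' median was highest.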

How the results depend on the processing

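Arrays of different treatments were matched by time, as a term of the model; the labels give no replicate numbers. Between combination and erlotinib, where 1 member was called, 0 were with arrays centred on all rows, 3 with a mean of at least 4, 2 with at least 6, 2 with no limit, 2 with a prior variance that follows the level, 3 with array weights and 3 without combination 6 h and erlotinib 12 h. Between quinacrine and erlotinib, with 0, the counts were 1, 1 and 1 for those 3 limits, 2 with array weights, 3 with the shared times of both groups alone, 2 with 6, 12 and 24 h alone and 1 without those 2 arrays. Against untreated, with 0, combination and quinacrine had 1 and 1 at a mean of at least 4, 6 and 2 with array weights, and 1 and 1 without those 2 arrays. The slope, with 1, had 0 without centring, centred on all rows, after cyclic loess, at a mean of at least 4, with no limit, with array weights, per hour and without those 2 arrays, and 2 with the prior that follows the level. The counts do not show which members were called. Shares of all tested genes called under each setting are not given here. A change in the members thus cannot be told from a change in calls over all genes. Between combination and erlotinib, SNORA38B, SNORA5A and SNORD17 were the 3 called without combination 6 h and erlotinib 12 h. SNORD116-14 was not called there (limma adjusted p = 0.0705). With 6, 12 and 24 h alone the 1 call was SNORA24, and SNORD116-14 had an adjusted p of 0.0652. At a mean of at least 4, SNORD116-21 was the call against untreated and between quinacrine and erlotinib. SNORD116-21 and SNORD116-30 were called there between combination and erlotinib, and were the 2 called with no limit. SNORD116-21 averaged 5.84, 5.76, 3.38 and 2.65 in the combination, quinacrine, erlotinib and untreated, and SNORD116-30 4.74, 4.14, 3.46 and 3.54. Both passed 4 through arrays with quinacrine, so their calls are no test of a rise. The array weights did not reach their convergence tolerance.

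Leaving out single arrays gave 1 to 3 calls (combination against erlotinib) and 0 to 2 (quinacrine against erlotinib). It gave 0 to 1 (combination against untreated), 0 to 5 (slope) and 0 to 1 (slope difference). Shares of tested genes called in these fits are likewise not given. Between combination and erlotinib, SNORA38B and SNORA5A were called without combination 6 h, SNORA5A with 1.10 (limma adjusted p = 0.0211). For SNORA38B that call is no test of the rise, as stated above. SNORA5A had -1.33 at 6 h and 1.75, 0.81 and 1.03 at 12, 24 and 48 h. SNORD116-14 was lost without either 48 h array of its comparison. The members' median against untreated ran from -0.01 to 0.09 for the combination over these fits, and was 0.09 without combination 6 h and erlotinib 12 h. With no limit on the mean it was 0.05 for quinacrine against untreated, -0.07 for the slope and -0.08 for the slope difference; the slope's was 0.16 with arrays centred on all rows, where SNORD51 (0.04), SNORD105 (0.01) and SCARNA17 (0.01) reversed.

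By array, the median minus untreated without centring was -0.27, 0.10, 0.19 and 0.21 in the combination at 6, 12, 24 and 48 h and 0.03 at quinacrine 24 h. Centred on all rows it was -0.43, 0.13, 0.26 and 0.27 in the combination, 0.12 at quinacrine 24 h and -0.31 at erlotinib 12 h. Cyclic loess gave -0.11 at combination 6 h. A mean of at least 4 gave -0.12 there and 0.08 at quinacrine 24 h, and at least 6 gave -0.07 at combination 12 h and -0.16 at quinacrine 24 h. With no limit it was 0.28, -0.05, 0.01 and -0.08 in the combination, 0.05 at quinacrine 6 h and 0.10 at erlotinib 12 h. A limit other than 5 changes the members as well as the fit. With 1 array a condition, small differences could not be told from the spread between arrays.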
